A study of Mus musculus with 15 samples.

Results

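The Bcl2 family of apoptosis regulators was followed across 2 mouse lines of high-grade neuroendocrine lung carcinoma, the tumors grown from them and normal lung. The 10 members were taken by gene name from the 55359 genes of the deposited matrix: Bcl2, Bcl2l1, Bcl2l2, Mcl1, Bcl2l11, Bax, Bak1, Bid, Bad and Bik. Of these, 8 were abundant enough to be tested, Bcl2l2 had at most 7 reads in any sample and Bak1 was listed at 0 in all 15 samples.

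RNA was sequenced after poly-A selection in 5 groups of 3 samples. 46LCNEC_cell was an adherent line of large cell neuroendocrine carcinoma, read at passage 17 in dishes A, B and C, and 57SCLC_cell was a suspension line of small cell lung carcinoma, read at passage 11 in flasks A, B and C. 46LCNEC_allo (tumors 312, 319 and 321) and 57SCLC_allo (tumors 275, 316 and 317) were tumors grown under the skin of immunocompetent QKO mice after injection of the same passages, and Lung (CT3, CT4 and CT5) came from littermates of the hosts. QKO mice carry a null Rbl1 gene and conditional alleles of further tumor suppressors that include Rb1 and Trp53. The LCNEC line arose from a tumor started with Ad-CMVcre, an adenovirus with Cre recombinase under a broadly active promoter, and the SCLC line from one started with Ad-K5cre, which directs Cre to keratin 5-expressing basal cells. Ages of the hosts and littermates are not given in the sources used here. Each tumor type is represented by a single line, so the tumor type cannot be told apart from the line, the Cre virus or the mode of growth. Allografts hold host cells beside the tumor cells, and in bulk RNA fewer cells of a type and less RNA per cell cannot be told apart.

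Samples had between 9480244 and 44876572 reads assigned to genes. Of the 6 neuroendocrine markers (Chga, Syp, Scg3, Elavl3, Elavl4, Ncam1), 6 were above 3 reads in every 57SCLC sample, with summed normalized counts of 31012 to 35779. In the 46LCNEC samples only Syp and Ncam1 were. The sum of the 6 markers was mostly Ncam1 there, with 28653 to 31542 in the cells and 3093 to 7406 in the allografts. Ncam1 had a mean of 29936 in the cells and 4827 in the allografts, and Chga had 4.23 and 10.6. The sum of 4 epithelial markers was 136 to 246 in 46LCNEC against 41356 to 46741 in 57SCLC, so the 46LCNEC samples held little of the neuroendocrine and epithelial markers other than Ncam1. Flask C stood apart from flasks A and B, with a chi-square per gene compared of 144 and 127, against 2.80 for A with B.

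Members of the family share BH domains and act at the mitochondrial outer membrane. Anti-apoptotic members hold the effectors in check, effectors form pores that release cytochrome c and lead to caspase activation, and BH3-only members respond to stress by binding the anti-apoptotic members or the effectors. The binding runs through the BH3 segment, a helix with a conserved leucine and aspartate that fits into a groove of the anti-apoptotic proteins.

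The part of each gene that encodes this segment is shown for the 8 members whose values follow, because it is the feature they share. Each sequence is the coding strand from GRCm39 and GENCODE M39 transcripts, read 5′ to 3′, and the capitals mark the 7 codons of the core, which was found in each member exactly 1 time.
Bcl2: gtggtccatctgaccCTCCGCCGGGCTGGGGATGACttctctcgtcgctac
Bcl2l1: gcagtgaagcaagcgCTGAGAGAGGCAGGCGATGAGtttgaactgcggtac
Mcl1: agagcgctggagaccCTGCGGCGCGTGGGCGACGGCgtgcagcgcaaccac
Bax: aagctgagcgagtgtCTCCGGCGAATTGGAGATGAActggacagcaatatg
Bcl2l11: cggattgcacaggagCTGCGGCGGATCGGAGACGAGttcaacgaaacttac
Bid: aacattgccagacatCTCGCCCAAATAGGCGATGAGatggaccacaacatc
Bad: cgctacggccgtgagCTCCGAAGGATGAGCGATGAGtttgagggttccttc
Bik: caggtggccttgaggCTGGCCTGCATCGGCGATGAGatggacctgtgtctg
The core lies in coding exons, at chr1:106640311-106640331 for Bcl2 (minus strand, exon 1 of 2), chr2:152671623-152671643 for Bcl2l1 (minus, exon 2 of 3) and chr3:95566747-95566767 for Mcl1 (plus, exon 1 of 3). It lies at chr7:45115427-45115447 for Bax (minus, exon 3 of 6) and chr2:127989070-127989090 for Bcl2l11 (plus, exon 3 of 4). For the remaining BH3-only members it lies at chr6:120874256-120874276 in Bid (minus, exon 4 of 6), chr19:6928160-6928180 in Bad (plus, exon 2 of 3) and chr15:83427285-83427305 in Bik (plus, exon 3 of 5). The cores of Bid and Bik, whose levels differed most between the lines, share 16 of 21 bases and 4 of 7 codons. Such likeness is not particular to this pair, since Bcl2l11 and Bax also share 16 bases, and Bcl2l1 and Bik also share 4 codons.

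Values are normalized counts, the reads of a gene divided by the size factor of the sample, and changes are log2 fold changes of the normalized count + 1 with their standard error (SE). A gene was called when the Benjamini-Hochberg adjusted p of limma over all genes tested was at most 0.01 and the change at least 2-fold.

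**Figure D1:**
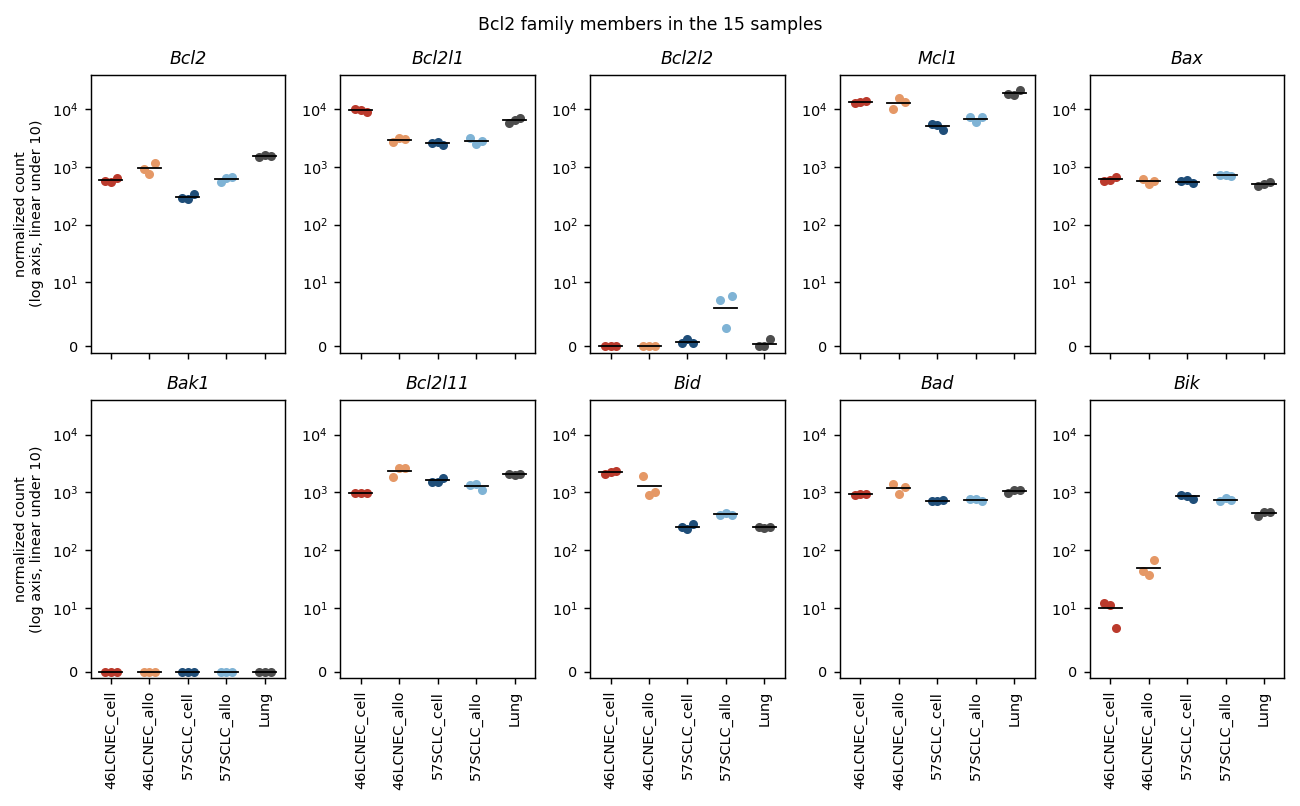
Normalized counts (log axis, linear under 10) of the 10 members in the 15 samples, by group. Points are samples and bars are means of 3. Bik and Bid are spread widest between the lines, Bax lies in a narrow band and Bak1 is at 0 throughout.

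Mcl1, a short-lived anti-apoptotic protein that many cells need to survive, was the most abundant member per kilobase of exon in every group, and it was lower in 57SCLC than in Lung. It had 18674, 17419 and 21309 normalized counts in Lung and 13097, 13153 and 13777 in 46LCNEC_cell. The 46LCNEC tumors had 10252, 15686 and 13128, the 57SCLC flasks 5594, 5336 and 4440.4, and the 57SCLC tumors 7263, 6128 and 7216. All Lung samples lay above all tumor and cell samples, and all 57SCLC samples lay below all 46LCNEC samples. Against Lung, Mcl1 fell by 1.90 in 57SCLC_cell (SE 0.12, adjusted p = 2.41e-06) and by 1.48 in 57SCLC_allo (SE 0.11, adjusted p = 8.77e-06). Its changes of -0.52 in 46LCNEC_cell and -0.57 in 46LCNEC_allo were not called.

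Bcl2l1, whose main product Bcl-xL protects mitochondria in many tissues, was highest in the LCNEC cells and lost that lead in the tumors grown from them. The dishes of 46LCNEC_cell had 10298, 9621 and 9013 normalized counts and Lung had 5788, 6578 and 7094. The other groups were close together, with 2695, 3130.2 and 3026 in 46LCNEC_allo, 2648, 2721 and 2388 in 57SCLC_cell and 3219.7, 2547 and 2804 in 57SCLC_allo. The ranges of 46LCNEC_allo and 57SCLC_allo overlapped, as did those of 57SCLC_allo and 57SCLC_cell. From the cells to the allografts of 46LCNEC, Bcl2l1 fell by 1.71 (SE 0.10, adjusted p = 2.83e-05). It was called down against Lung in 46LCNEC_allo (-1.13, SE 0.11), 57SCLC_allo (-1.18, SE 0.11) and 57SCLC_cell (-1.32, SE 0.10), and its difference of 0.57 in 46LCNEC_cell was not called. With library size scaling the change in 57SCLC_allo was -0.98, under 2-fold, and that call was lost.

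Bcl2, the founding anti-apoptotic member, was highest in Lung and lowest in the SCLC cells. Lung had 1461, 1601 and 1548 normalized counts, 46LCNEC_allo 915, 754 and 1172, and 57SCLC_allo 558, 643 and 671. In culture it had 565, 552 and 647 in 46LCNEC_cell and 293, 283 and 347 in 57SCLC_cell. The allografts of either line lay above their cells in every sample, and the ranges of 57SCLC_allo and 46LCNEC_cell overlapped. Bcl2 was called down against Lung in 57SCLC_cell (-2.32, SE 0.10), 46LCNEC_cell (-1.39, SE 0.09) and 57SCLC_allo (-1.30, SE 0.10), while the -0.72 of 46LCNEC_allo (SE 0.17, adjusted p = 0.00947) was under 2-fold. It was called up from 57SCLC_cell to 57SCLC_allo by 1.02 (SE 0.13, adjusted p = 3.84e-04), a value at the edge of the 2-fold threshold that falls to 0.90 with upper quartile scaling, to 1.00 (just under it) with library size scaling, to 0.99 without flask A, to 0.96 without flask B, to 1.00 (just under the threshold) without tumor 316 and to 0.97 without tumor 317. Bcl2 is abundant in lymphocytes, and the sum of 6 leukocyte markers (Ptprc, Cd3e, Cd79a, Cd68, Adgre1, Lyz2) had the same order between cells and tumors, with 280 to 356 in the cells of both lines, 17290.0 to 40960.2 in 46LCNEC_allo, 7953 to 13178 in 57SCLC_allo and 86152 to 114412 in Lung. In the cells of both lines Adgre1 and Cd3e were at or under 3 reads in all samples. The sum in tumors and Lung was mostly the myeloid gene Lyz2, with a mean of 22512 in 46LCNEC_allo. The T cell gene Cd3e had 3.97, 2.11 and 150.5 in 46LCNEC_allo, 16.99 to 26.3 in 57SCLC_allo and 323 to 419 in Lung. The B cell gene Cd79a had means of 91.5 in 46LCNEC_allo, 55.2 in 57SCLC_allo and 516 in Lung, with 18.5 in 46LCNEC_cell and 33.5 in 57SCLC_cell. The sum is therefore no measure of lymphocytes. The part of host leukocytes in the Bcl2 level was not tested.

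Bcl2l2, which encodes the anti-apoptotic Bcl-w, was listed at 0 in the 6 samples of 46LCNEC and had at most 2 reads in 57SCLC_cell and 1 read in Lung. In 57SCLC_allo it had 3, 2 and 7 reads, or 7.18, 2.83 and 7.94 normalized counts, which is near the floor of 3 reads. Its annotated exons share 11% of their bases with Gm20521, a readthrough transcript on the same strand that had 91.6 to 203 normalized counts. How reads on shared exons were assigned is not given in the sources used here, so the level of Bcl2l2 is uncertain.

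Among the effectors, Bax held the narrowest range of the tested members, within 1.40-fold between the highest and lowest group means. It had 574, 590.5 and 666 normalized counts in 46LCNEC_cell, 616, 510.5 and 581 in 46LCNEC_allo, and 562, 595 and 522 in 57SCLC_cell. In 57SCLC_allo it had 730.1, 733 and 692, above all other samples, and in Lung 474, 516 and 544. Bax was called in 0 of the 8 comparisons of a pair of groups by limma, edgeR and DESeq2. In limma it had an unadjusted p under 0.05 in 4 of the 8, with the largest change in 57SCLC_allo against Lung (0.49, SE 0.09, adjusted p = 0.00185).

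Bak1, the other effector among the members, was listed at 0 in all 15 samples. Diablo, Bcl2a1d and Fbxw7 of the pathway lists were also listed at 0 throughout, as were 17% of the 21627 protein-coding genes of the matrix. The exons of Bak1 share 18.2% of their bases with Ggnbp1 and 7.35% with the readthrough gene Gm50253, both on the opposite strand. The 0 is given as the listed value and not as absence of the transcript.

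Among the BH3-only members, Bik, named for its ability to kill by interaction with Bcl2, spanned the widest range of all members, 6.26 on the log2 scale between group means. It had 12.2, 11.04 and 6.92 normalized counts in 46LCNEC_cell and 43.7, 36.8 and 68.6 in 46LCNEC_allo. The 57SCLC samples had 909, 873 and 764 in culture and 716, 784 and 739 as tumors, and Lung had 392, 452 and 452. All 46LCNEC samples lay below all Lung samples, and all 57SCLC samples lay above them. Against Lung, Bik was called down in 46LCNEC_cell (-5.32, SE 0.24, adjusted p = 5.71e-08) and in 46LCNEC_allo (-3.14, SE 0.27, adjusted p = 1.29e-04). Its rise over Lung of 0.97 in 57SCLC_cell (SE 0.11, adjusted p = 7.23e-05) fell short of 2-fold, and edgeR (1.05) and DESeq2 (1.00) on the recovered reads called it, as did limma with upper quartile (1.15) or library size scaling (1.203), without flask C (1.05), without CT4 or without CT5 (1.01 each). In 57SCLC_allo the rise was 0.79 (SE 0.10).

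Bid, which caspase-8 cleaves to link death receptors to mitochondria, ran the other way. It had 2092, 2246 and 2342 normalized counts in 46LCNEC_cell and 1958, 903 and 1018 in 46LCNEC_allo, so tumor 312 stood near the cells and the other tumors lower. The values were 248, 233 and 285 in 57SCLC_cell, 412, 443 and 409 in 57SCLC_allo, and 250.4, 244 and 249 in Lung. The ranges of 57SCLC_cell and Lung overlapped, and every 46LCNEC sample lay above every other sample. Against Lung, Bid was called up in 46LCNEC_cell (3.16, SE 0.08, adjusted p = 2.25e-09) and in 46LCNEC_allo (2.29, SE 0.29, adjusted p = 6.54e-04). The exons of Bid share 31.2% of their bases with Bcl2l13 on the opposite strand, so the counts of Bid are uncertain. Bcl2l13 had 1194 to 3324 normalized counts, with group means of 2946 in 46LCNEC_cell and 1927 in 46LCNEC_allo. In 57SCLC its means were 3096 in cells and 2397 in allografts, and in Lung 1386. It was called up against Lung in 46LCNEC_cell (1.10, SE 0.12) and 57SCLC_cell (1.17, SE 0.13), and not in the allografts of either line.

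Bcl2l11, which encodes Bim, a binder of all the main anti-apoptotic proteins, was lowest in the LCNEC cells and rose in their allografts. It had 981, 980.1 and 993 normalized counts in 46LCNEC_cell and 1836, 2630.3 and 2633 in 46LCNEC_allo. In 57SCLC it had 1525, 1532 and 1791 in culture and 1331, 1403 and 1106 as tumors, and in Lung 2108, 1977 and 2100.1. The ranges of 46LCNEC_allo and Lung overlapped. The rise from 46LCNEC_cell to 46LCNEC_allo was 1.24 (SE 0.15, adjusted p = 6.26e-04). Against Lung, the change in 46LCNEC_cell was -1.06 (SE 0.07, adjusted p = 4.83e-07), and the call was lost with edgeR (-0.94), DESeq2 (-0.97) and upper quartile scaling (-0.87), which put it under 2-fold.

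Bad, whose binding to Bcl-xL is switched off by survival kinases, was called in 0 of the 8 comparisons by limma, edgeR and DESeq2, with an unadjusted p under 0.05 in 5 of the 8 in limma. It had 915, 924 and 956 normalized counts in 46LCNEC_cell and 1421, 949 and 1229 in 46LCNEC_allo. It had 705, 697 and 744 in 57SCLC_cell, 771, 757 and 705 in 57SCLC_allo, and 981, 1120.0 and 1112 in Lung. All 57SCLC samples lay below all other samples, by 0.38 against 46LCNEC in culture and by 0.67 in allografts on the log2 scale (limma, adjusted p = 0.00196 and 0.0119). The exons of Bad share 25.2% of their bases with a long non-coding RNA and 20.4% with Gpr137, both on the opposite strand, so its counts are uncertain.

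**Figure D2:**
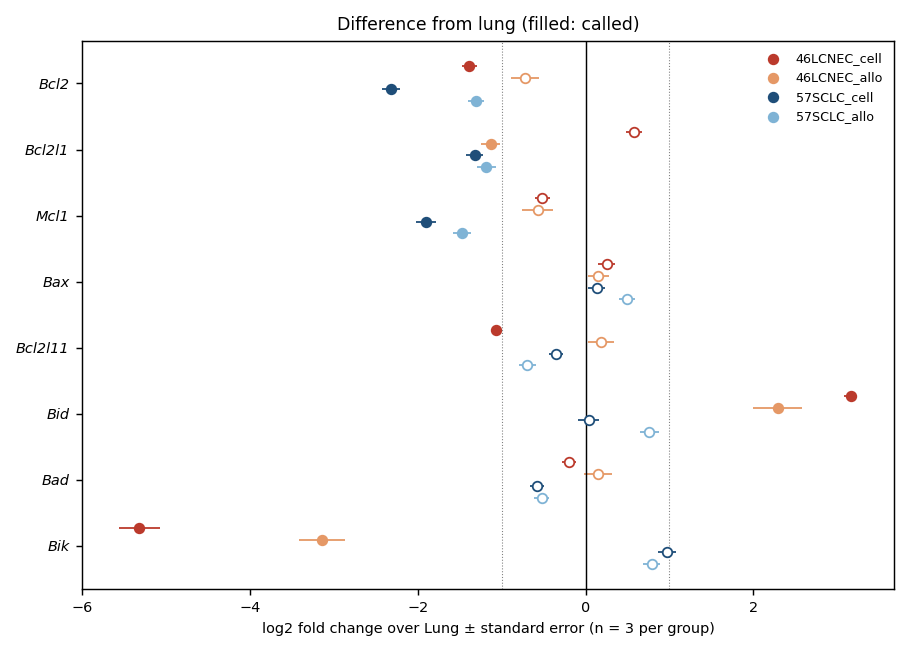
Log2 fold change over Lung (x axis, ± standard error, n = 3 per group) of the 8 tested members in cells and allografts of both lines. Filled points are called, and dotted lines mark a 2-fold change. The anti-apoptotic members lie to the left in both 57SCLC groups, and Bid and Bik of 46LCNEC lie far out on opposite sides.

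The comparisons with Lung asked which members differ between tumor and normal tissue, and all of them used the same Lung samples. In 57SCLC_allo, 3 of 8 tested members were called, against 45.8% of all genes tested (18.9% up, 26.9% down), and Mcl1, Bcl2l1 and Bcl2 were all down, Bcl2l1 not with library size scaling. In 57SCLC_cell the called members were again Mcl1, Bcl2l1 and Bcl2, down, against 53.8% of genes (21.1% up, 32.7% down). In 46LCNEC_allo, 3 of 8 were called (Bid up, Bcl2l1 and Bik down) against 35.6% of genes (13.4% up, 22.1% down). In 46LCNEC_cell it was 4 of 8 (Bid up, Bcl2, Bcl2l11 and Bik down) against 55.6% (20.6% up, 35.0% down). In 46LCNEC_allo the share of members called was close to that of all genes, and in the other comparisons with Lung it was below it. The median change of the 3 tested anti-apoptotic members was -1.90 in 57SCLC_cell and -1.30 in 57SCLC_allo, where the medians of all genes were -0.12 and -0.09. In 46LCNEC it was -0.52 in cells and -0.72 in allografts, beside -0.23 and -0.14.

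Lung differs from the tumors in cell makeup as well. The sum of the 4 alveolar markers (Sftpc, Sftpb, Ager, Hopx) was 154843 to 211659 in Lung and at most 2515 in any other sample. That of the 4 endothelial markers (Pecam1, Cdh5, Kdr, Vwf) was 71673 to 87179 in Lung and at most 10589 elsewhere. In 57SCLC this sum was mostly Vwf, with a mean of 7395 in the cultured cells and 7353 in the allografts. Cdh5 and Kdr were at or under 3 reads in those cultured cells, so the sum is no measure of endothelium there. The part of alveolar and endothelial cells in the differences from Lung was not tested.

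**Figure D3:**
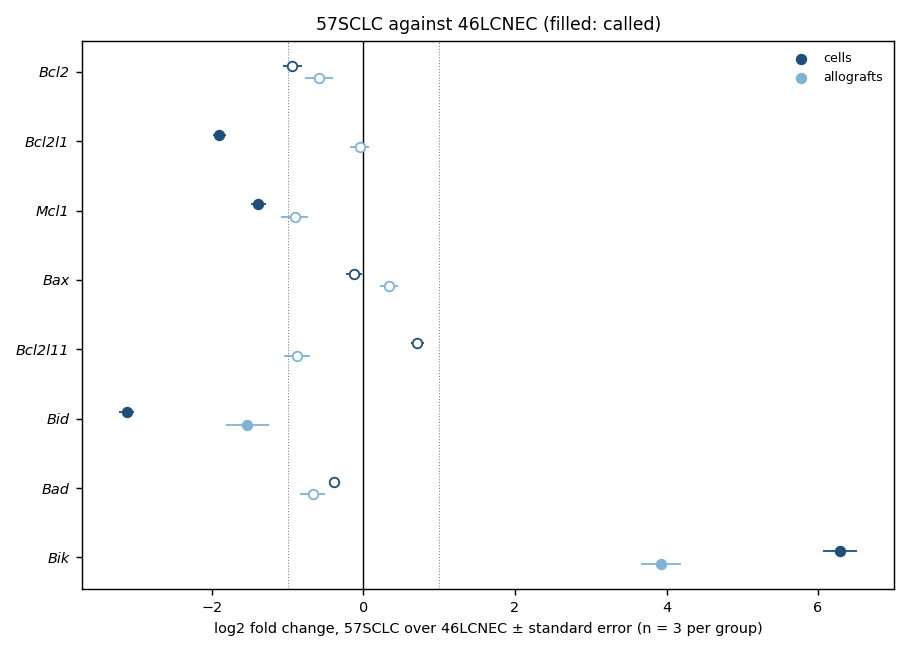
Log2 fold change of 57SCLC over 46LCNEC (x axis, ± standard error, n = 3 per group) for the 8 tested members, in cells and in allografts. Filled points are called. Bik lies far to the right and Bid to the left in both settings, while Bcl2l1 moves from -1.90 in cells to -0.05 in allografts.

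The cells of both lines were then compared without any host tissue. In culture, 4 of 8 tested members were called between the lines, against 46.1% of all genes (23.9% up, 22.2% down). Bik was higher in 57SCLC_cell by 6.29 (SE 0.22, adjusted p = 9.51e-08), a 78.5-fold difference. Bid was lower by 3.12 (SE 0.10, adjusted p = 5.82e-08), or 8.71-fold, Bcl2l1 by 1.90 (SE 0.08, adjusted p = 2.94e-07) and Mcl1 by 1.39 (SE 0.10, adjusted p = 4.69e-06). Bcl2 was lower by 0.94 (SE 0.12, adjusted p = 1.65e-04), just under 2-fold, and was called without flask C (-1.02). Bcl2l11 was higher by 0.71 (SE 0.09) and was not called.

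In the allografts, 2 of 8 tested members were called between the lines, against 30.4% of genes (16.1% up, 14.2% down). Bik was higher in 57SCLC_allo by 3.93 (SE 0.27, adjusted p = 4.82e-05), a 15.2-fold difference. Bid was lower by 1.53 (SE 0.29, adjusted p = 0.00397), and this call was lost without any one of the 57SCLC tumors, with adjusted p of 0.0161 to 0.0192. Mcl1 (-0.91) and Bcl2l11 (-0.87) were not called with all tumors and were called without tumor 312 (-1.07 and -1.05). Of its group, tumor 312 had the lowest Mcl1 and Bcl2l11 and the highest Bid. It also had the highest sum of 4 fibroblast markers (Col1a1, Col1a2, Dcn, Pdgfra), 664490 normalized counts against 289456 in the lowest tumor. That sum was mostly Col1a1 and Col1a2, which the cultured 46LCNEC cells held too (means of 20963 and 50209). Dcn and Pdgfra were highest in tumor 321, so the markers did not all point to tumor 312. The part of fibroblasts in these values was not tested.

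From cells to allografts of 46LCNEC, 3 of 8 tested members were called, against 22.8% of genes (14.4% up, 8.45% down). Bcl2l1 fell and Bcl2l11 rose as given above, and Bik rose by 2.18 (SE 0.38, adjusted p = 0.00274) from counts near 10, a call that was lost without dish B or dish C (adjusted p = 0.0122 and 0.0149). Bid had a change of -0.87 (SE 0.27, adjusted p = 0.0311) and was called without tumor 312 (-1.21). In 57SCLC, 1 of 8 members was called from cells to allografts, the Bcl2 described above, against 16.6% of genes (14.4% up, 2.29% down). Bik had a change of -0.18 (SE 0.10), Bcl2l1 of 0.14 (SE 0.10) and Bid of 0.72 (SE 0.12, adjusted p = 0.00229), the last of these under 2-fold.

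Whether the line difference itself changed between culture and allograft was tested as an interaction over the 12 cell and allograft samples, and 4 of 8 members were called, against 17.5% of genes (10.8% up, 6.78% down). The line difference of Bcl2l1 shifted by 1.85 (SE 0.15, adjusted p = 2.21e-06), from -1.90 in cells to -0.05 in allografts. That of Bid shifted by 1.59 (SE 0.32, adjusted p = 0.00233) and that of Bik by -2.37 (SE 0.36, adjusted p = 3.51e-04), so both were smaller in the allografts. That of Bcl2l11 shifted by -1.58 (SE 0.20, adjusted p = 1.02e-04), from 0.71 to -0.87, and thus turned from higher to lower in 57SCLC. In all 4, the larger change from culture to allograft was in 46LCNEC, with little between the lines for Bid (-0.87 and 0.72). The leukocyte sum, given above, was higher in the allografts of both lines. So was the fibroblast sum, with 67853 to 78009 in 46LCNEC_cell and 289456 to 664490 in 46LCNEC_allo. In 57SCLC it was 22.4 to 27.8 in cells and 30353 to 47802 in allografts. The sum in 46LCNEC_cell was above the 17675 to 22052 of Lung and was mostly Col1a1 and Col1a2, while Dcn had a mean of 11.1. It therefore does not measure host fibroblasts alone in 46LCNEC. The part of host leukocytes and fibroblasts in the shifts was not tested.

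**Figure D4:**
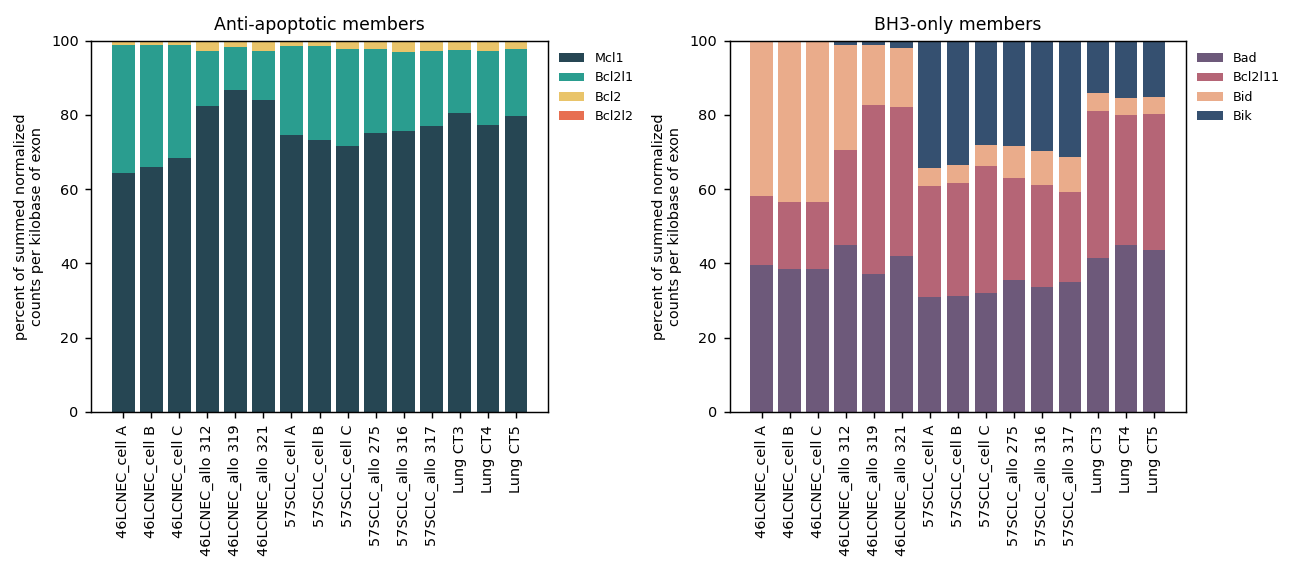
Share (percent) of each member in the summed normalized counts per kilobase of exon, per sample, for the anti-apoptotic members (left) and the BH3-only members (right). Mcl1 takes most of the left sum in every sample. On the right, Bid takes about as much as Bad in 46LCNEC_cell and Bik is visible in 57SCLC and Lung.

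Levels of different members were set side by side per kilobase of merged exons, since longer genes collect more reads. Mcl1 had the highest and Bcl2l1 the next highest level per kilobase in every group, with Bax after them. Of the summed anti-apoptotic level, Mcl1 made up 79.3% ± 1.65 in Lung (SD, n = 3). In 46LCNEC the share was 66.3% ± 1.96 in culture and 84.4% ± 2.12 in the allografts, and in 57SCLC it was 73.1% ± 1.43 and 75.9% ± 0.927. Bcl2l1 made up 32.6% ± 2.04 in 46LCNEC_cell and 13.2% ± 1.49 in 46LCNEC_allo, and these ranges did not overlap. Bcl2 was between 1.11% and 2.63% of the sum in every group.

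The log2 ratio of the anti-apoptotic sum to the effector sum, which is Bax alone since Bak1 was listed at 0, was 4.65 ± 0.10 in Lung, 4.13 ± 0.12 in 46LCNEC_cell and 3.83 ± 0.41 in 46LCNEC_allo. In 57SCLC it was 2.73 ± 0.09 in cells and 2.74 ± 0.16 in allografts, so the 57SCLC samples lay below all others. The 0 of Bak1 entered as listed, and Bok, a Bcl2-like gene outside the members, was not counted. Per kilobase, Bok had means of 1071 (culture) and 581 (tumors) for 46LCNEC, and 960 and 1083 for 57SCLC. Each was above the Bax mean of its group (329, 307, 302 and 387), while Lung had 270 for Bok and 275 for Bax. Bok was called up against Lung in both lines, cultured or grafted, by 1.10 to 2.00. The ratio therefore describes Bax only, and a ratio with Bok was not computed. Among the BH3-only members, Bid made up 42.5% ± 1.06 of the sum per kilobase in 46LCNEC_cell and 5.13% ± 0.433 in 57SCLC_cell, and Bik 0.361% ± 0.109 and 31.9% ± 3.32. With the longest transcript as length in place of merged exons, the Bik shares were 0.189% and 20.2%. These sums describe transcripts over chosen members and carry no test.

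The genes whose pattern over the 15 samples was most like that of Bik were Slc37a1 (Pearson r = 0.995), Ildr1 (r = 0.994) and Tmc4 (r = 0.993), of 13704 genes compared on log2(normalized count + 1). Slc37a1 had mean normalized counts of 4.83 in cells and 66.2 in allografts of 46LCNEC, 2548 and 1744 in those of 57SCLC, and 1210.4 in Lung. The points share their groups of 3, and the values describe likeness only.

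**Figure D5:**
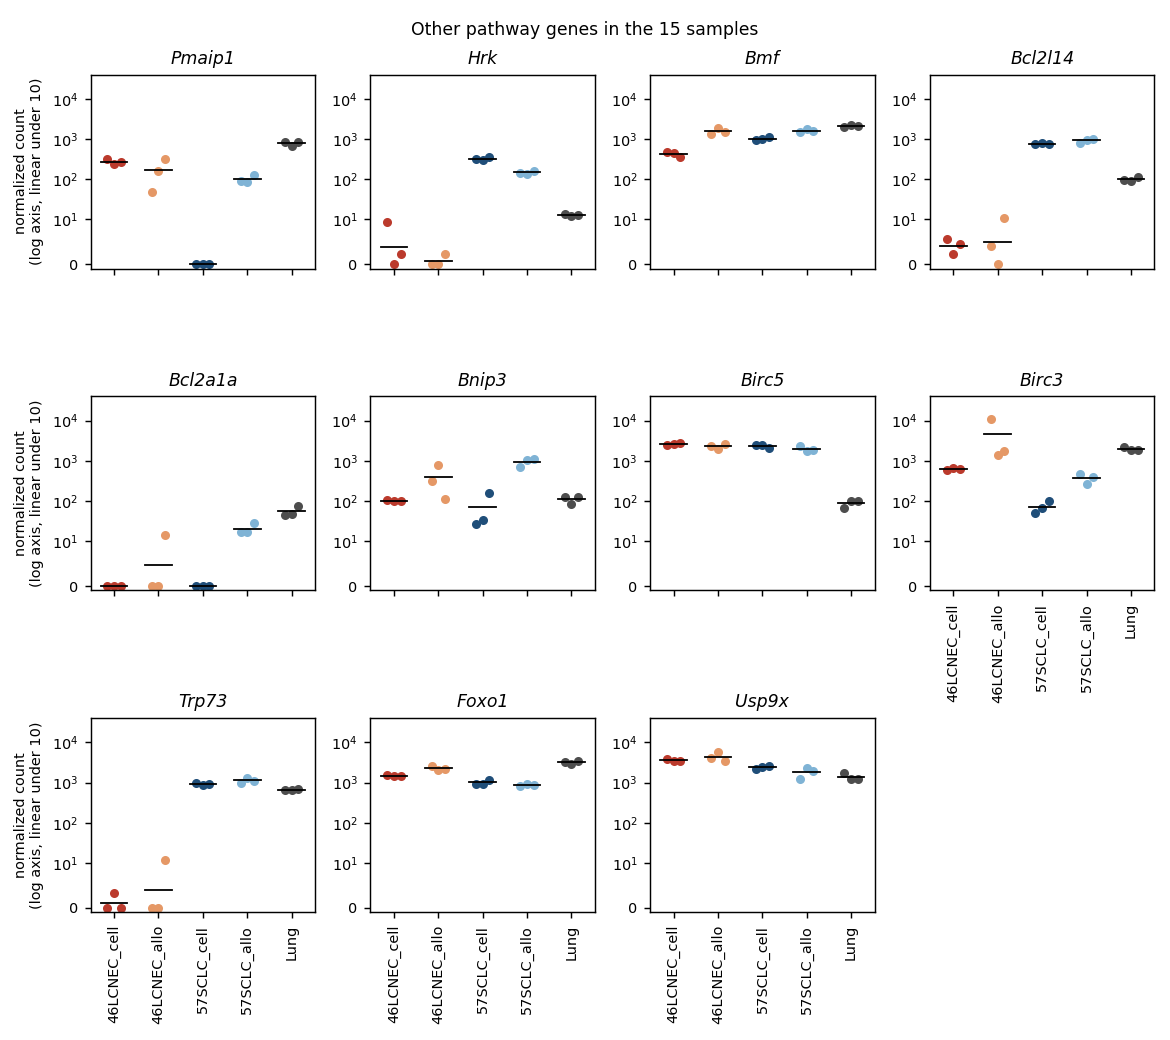
Normalized counts (log axis, linear under 10) of 11 other genes of the pathway in the 15 samples, by group, with means of 3 as bars. Pmaip1 is at 0 in all 57SCLC flasks, and Hrk, Bcl2l14 and Trp73 are near 0 in 46LCNEC.

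The rest of the pathway was read from 4 lists of genes, which were drawn up with earlier results of these data known. Of the 4 other BH3-only genes, all tested in culture, 2 were up and 1 was down in 57SCLC_cell against 46LCNEC_cell, where 46.1% of all genes were called (23.9% up, 22.2% down). Pmaip1, which encodes Noxa, a binder of Mcl1, had 315, 236 and 262 normalized counts in 46LCNEC_cell and 0 reads in each 57SCLC flask, so it was at least 162-fold lower there against a floor of 3 reads per library. It had 88.6, 87.8 and 129 in 57SCLC_allo and 865, 669 and 843 in Lung. Hrk, a BH3-only gene known from neurons, had 316, 299 and 364 normalized counts in 57SCLC_cell, 141, 136 and 165 in 57SCLC_allo and 13.5, 11.97 and 12.9 in Lung, and at most 10 reads in any 46LCNEC sample. Bmf was higher in 57SCLC_cell than in 46LCNEC_cell by 1.25 (SE 0.13) and rose from 46LCNEC_cell to 46LCNEC_allo by 1.87 (SE 0.17).

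Of 13 other Bcl2-like genes, 9 were tested between the lines in culture and 1 was called, against 46.1% of all genes. It was Bcl2l14, with 765, 778 and 748 normalized counts in 57SCLC_cell and 5.63, 2.21 and 4.61 in 46LCNEC_cell. Of 17 genes of the caspase arm downstream of mitochondria, 16 were tested, and 0 were up and 5 down in 57SCLC_cell against 46LCNEC_cell, beside 23.9% and 22.2% of all genes. Birc5, which encodes survivin and is expressed in dividing cells, was up against Lung in all 4 groups, by 4.48 to 4.87. Of 11 regulators of members, 10 were tested and 1 was called in the same comparison, again against 46.1% of all genes. It was Trp73, a relative of Trp53, with 994, 882 and 935 normalized counts in 57SCLC_cell and at most 3 reads in any 46LCNEC dish.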

How the data were processed

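RNA from 15 mouse samples in 5 groups of 3 (separate dishes, flasks, tumors or mice) was sequenced after poly-A selection. The authors used Rbowtie2 for alignment to GRCm39, featureCounts with GENCODE release 27 for gene counts and the size factors of DESeq2 for scaling. The deposited values are therefore a normalized signal and no raw counts. The strand setting and the treatment of reads shared by genes are not given in the sources used here. Every value came out as a whole read within 0.01 once divided by the worth of 1 read in its sample, so reads were recovered (9480244 to 44876572 per sample). A floor of 3 reads was used, which covers counting error only.

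Comparisons used limma 3.58.1 in R 4.3.3 with a mean-variance trend on log2(normalized count + 1), on genes that reached 10 normalized counts in 3 or more of the samples fitted, with Benjamini-Hochberg adjustment over all genes tested. Fold changes on this scale understate those of low genes. edgeR 4.0.16 and DESeq2 1.42.0 on recovered reads, other pseudocounts, scalings and thresholds, no filter and each sample left out were alternatives. The procedures were tested on simulated data. The planned design allowed for either raw or normalized values. Exon lengths and sequences came from GENCODE M39 on GRCm39, with Python 3.11.15, and figures from matplotlib 3.10.9.

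All 10 members are reported. Of each other list, at most 3 genes are named, those with the largest change among the called, and for the widest member its 3 nearest genes with a mean of at least 100 normalized counts. Bok is named in addition, beside the effector sum. The members and lists were chosen with earlier results of these data known. Some genes, among them ones deleted in the QKO model, are not reported here.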

Additional observations from a re-analysis of the deposited data

Results flagged for a closer look

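For 4 members the difference between the lines was not the same in culture and in allografts, by limma's test of the difference itself over 12 samples. The shift in the line difference, allografts minus cells on the log2 scale, was 1.85 for Bcl2l1, 1.59 for Bid, -2.37 for Bik and -1.58 for Bcl2l11. Bcl2l1 had 9013 to 10298 normalized counts in 46LCNEC_cell and 2388 to 2721 in 57SCLC_cell, while its ranges in the allografts overlapped. All 4 calls held when any 1 sample was left out. In a test against a 2-fold change, only Bcl2l1 of the 4 was called.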

How the results depend on the processing

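Over all alternatives, 1163 of the log2 fold changes of members kept direction and call, 27 lost the call, 11 gained it and 7 turned sign. The turned values were 0.000765 for Bad in 46LCNEC_cell against Lung and -0.067 for Bad from cells to allografts of 57SCLC with upper quartile scaling, 0.11 for Bax between the cells and 0.21 for Bcl2l1 between the allografts with library size scaling, and, when 1 sample was left out, -0.045 for Bid in 57SCLC_cell against Lung (without flask C, of a range to 0.099), 0.029 for Bcl2l1 between the allografts (without tumor 316, of a range from -0.14) and 0.11 for Mcl1 from cells to allografts of 46LCNEC (without tumor 312, of a range from -0.20). Library size scaling moved the median of all genes by up to 0.26 (log2) and the calls between the allografts from 2821 up and 2491 down to 3523 and 1961, and either scaling left 0 members called from cells to allografts of 57SCLC. A test against 2-fold called fewer genes by construction, with 3451 genes in 46LCNEC_allo against Lung, 2861 between the allografts, 1414 and 1700 from cells to allografts of 46LCNEC and 57SCLC, and 1293 in the interaction. It called 1 member in 57SCLC_allo against Lung, 1 between the allografts, 1 and 0 from cells to allografts of 46LCNEC and 57SCLC, and 1 in the interaction. With no filter, Bcl2l2 was also called up in 57SCLC_allo against Lung and against 46LCNEC_allo, at no more than 7 reads.

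With each sample left out in turn, members called ranged from 2 to 4 (from cells to allografts of 46LCNEC), 1 to 4 (between the allografts), 0 to 1 (from cells to allografts of 57SCLC), 4 to 5 (between the cells) and 3 to 4 (57SCLC_cell against Lung), and stayed at 3, 3, 4 and 4 in 46LCNEC_allo against Lung, 57SCLC_allo against Lung, 46LCNEC_cell against Lung and the interaction. Genes called from cells to allografts of 46LCNEC were 2440.0 to 3926, the lowest without dish C. Bcl2 in 57SCLC_allo against 57SCLC_cell was not called without flask A, flask B, tumor 316 or tumor 317. With the replicate block of letters A to C, 7797 genes and 4 members were called between the cells, against 7799 and 4. Same-letter samples had correlations of 0.09, -0.08 and -0.01, so they share only a letter. With the longest transcript as length, the log2 ratio of the anti-apoptotic to the effector sum was 3.59, 3.17, 2.14, 2.13 and 4.02 in 46LCNEC_cell, 46LCNEC_allo, 57SCLC_cell, 57SCLC_allo and Lung, the Mcl1 share 57.5%, 79.0%, 65.2%, 68.6% and 72.7%, and the Bcl2l1 share 41.3%, 18.1%, 32.8%, 28.3% and 24.5%.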
